A study of Mus musculus with 32 samples.

Results

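The comparison described here set the 5-methylcytosine (5mC) signal of mouse kidney against that of mouse liver, gene by gene. It used the 2 kidney libraries, frozen and FFPE, and the 2 liver libraries, frozen and FFPE, of the deposited 5mC table, which holds 8 libraries from 4 organs. A gene was a member when it had at least 1 CPM (reads per 1000000 of a scaled library size, explained below) in at least 2 of the 8 libraries, which kept 25982 of the 27179 genes. FFPE tissue was fixed in 10% formalin and embedded in paraffin, and frozen tissue was flash frozen after harvest. The labels give 8 kidney and liver samples with the 5mC antibody among 32 samples, but each column of the table names only an organ and a preservation method. The series also has samples titled Input for the same organs and preservation methods. No Input values were used here, so the differences were not set against Input. Each column is called a library below, and the sources used here do not say whether a column pools samples. The fit that gave p-values took in all 8 libraries, brain and heart included. Its p-values rest on how far organ differences changed with preservation across the 4 organs, a spread that may be technical. The labels name no strain, age, sex, treatment or genotype for the mice, and whole organs were taken, so each value mixes all cell types of the organ.

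5mC is cytosine with a methyl group, found in mammals mostly where C is followed by G (CpG). In methylated DNA immunoprecipitation (MeDIP) an antibody against 5mC pulls down single-stranded DNA fragments, which are then sequenced, so a gene's count grows with the number of methylated cytosines and with the gene's length. The values are therefore compared between organs for 1 gene at a time and not between genes. Hepatocytes make up most of the liver and secrete albumin, clotting factors and lipoproteins, while the kidney is built from nephrons whose tubule segments reabsorb salts and solutes. Low 5mC around a gene's start is common in tissues that use the gene, but 5mC is not a measure of expression, so marker genes below describe DNA methylation and do not identify cells.

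The 4 libraries held between 2164158 reads on genes (FFPE kidney) and 3699218 (frozen liver), and the brain and heart libraries held 2205597 to 3050175. The frozen kidney library stood apart from the others: 2999 of its genes were at 0 reads, against 880 to 2380 in the other 7 libraries. Among its genes with 1 to 20 reads, 56.2% had an even number of reads, against 48.7% to 51.8% elsewhere. Its log2 CPM values correlated with FFPE kidney at r = 0.862 and with frozen liver at r = 0.871 across genes, whereas FFPE kidney and FFPE liver reached 0.910. Counts of called genes in lists that hold calls are therefore given also without the frozen kidney library. A count of 0 reads allows up to 0.911 CPM in frozen kidney, 1.42 in FFPE kidney, 0.876 in frozen liver and 1.14 in FFPE liver, for counting error only. The deposited values were scaled by a library size that differs from the reads on genes: it was 0.851 times the reads in FFPE liver, 0.925 in frozen liver, 0.956 in frozen kidney and 0.978 in FFPE kidney, and 1.06 to 1.10 times in brain and heart. Each CPM and summed CPM below carries that scaling.

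Kidney and liver differed at 493 genes (1.9% of those tested) at an adjusted p below 0.05 in limma with Benjamini-Hochberg adjustment, the rule meant by "called" throughout. The signal was higher in kidney at 196 genes (0.754%) and lower at 297 (1.14%). At an unadjusted p below 0.05 there were 2140 higher and 2519 lower. Without the frozen kidney library 229 genes were called higher (0.881%) and 478 lower (1.84%). The counts moved more with other libraries, to 940 and 1653 without FFPE kidney, 54 and 21 without frozen liver, 66 and 11 without FFPE liver, 105 and 115 without frozen heart, and 100 and 116 without FFPE heart. When the variance was not modelled against the mean signal, limma called 0 genes in either direction, with 3463 at an unadjusted p below 0.05. Higher calls were 39.8% of all calls, 63.4% after quantile normalization and 20.2% after centring each library on its median, after which the all-gene median stood at -0.13 in place of -0.0023. With the reads divided by their plain totals, an alternative chosen after seeing the data, 285 genes were called higher and 133 lower (68.2% higher), and the all-gene median moved to 0.12. That adds the same 0.12 to every list median below, so the proximal tubule median became 0.092 and that of the distal nephron 0.046. Of the genes named below, Scnn1a, Pcx, Epcam, Peg3 and Cyp26c1 were then not called.

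The differences seen in frozen tissue and in FFPE tissue share no library, and they were only weakly alike across all genes. Kidney minus liver correlated between them at r = 0.0968 over 25982 genes, with the same sign at 58.5%. Among the 12991 genes at or above the median signal r was 0.36 with the same sign at 63.0%. These are descriptions across genes, which are not independent replicates and share each library's depth. In the scatter of these differences, most called genes lie where both have the same sign, which the test of their mean favours.

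**Figure D1:**
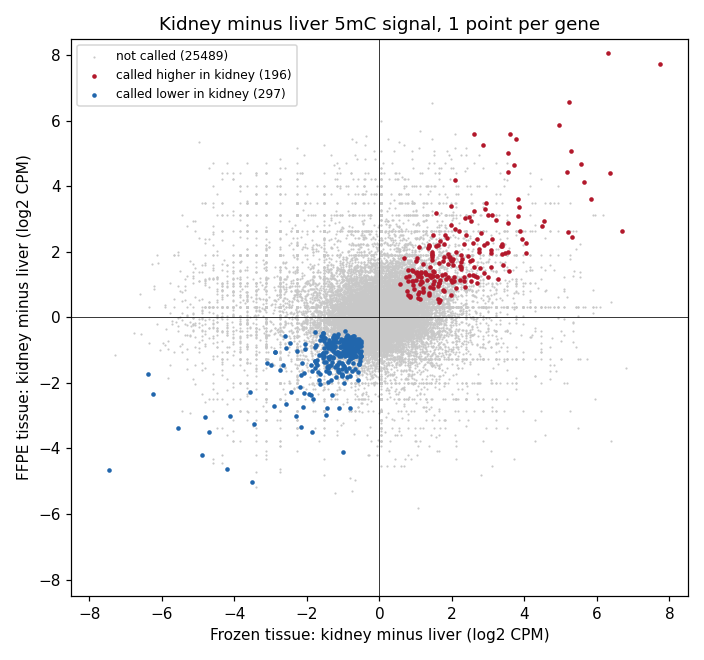
Kidney minus liver 5mC signal (log2 CPM) of 25982 genes in frozen tissue (horizontal axis) against FFPE tissue (vertical axis), 1 point per gene. Red points are the 196 genes called higher in kidney, blue points the 297 called lower, and grey points genes not called, which spread widely around 0 in both directions.

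Many genes of hepatocytes had less 5mC signal in liver than in kidney. Of 63 genes on a hepatocyte list, 17 were called higher in kidney and 1 lower. That is 27.0% and 1.59% of the list, against 0.754% and 1.14% of all tested genes. The median difference was 0.98 on the log2 scale, against -0.0023 over all tested genes. It was 0.96 with Hamp left out, which had 1 read at most in each of the 4 libraries. The list's summed signal was 1998 and 2019 CPM in frozen and FFPE kidney, 1122 and 1332 in frozen and FFPE liver, and 1970 to 2372 in brain and heart. Liver was lowest, and kidney lay within the range of heart and brain. The median was 0.95 in frozen tissue and 0.83 in FFPE tissue. Both liver libraries lay below all 6 other libraries at 42 of the 63 genes (66.7%), against 10.3% of all tested genes. Without the frozen kidney library 15 were called higher and 1 lower. The count fell to 5 without frozen liver and 7 without FFPE liver, and to 11 without either heart library, while the median without frozen kidney was 0.98.

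Alb encodes albumin, the main protein of blood plasma (chromosome 5, 90460870 to 90476602, GRCm38). It had 44.5 CPM in frozen kidney, 22.0 in FFPE kidney, 5.99 in frozen liver and 8.52 in FFPE liver, and 20.4 to 41.1 CPM in brain and heart. Liver stood below the other organs, and kidney lay within the range of brain and heart or just above it. The fitted difference was 2.13 ± 0.38 (SE; adjusted p = 0.0106, limma), a 4.38-fold higher signal in kidney. Without frozen liver it was 1.65 and no longer called.

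Fga encodes the alpha chain of fibrinogen, the clot protein. It had 80.3 and 85.3 CPM in frozen and FFPE kidney, 21.5 and 22.5 in frozen and FFPE liver, and 58.1 to 90.9 in brain and heart. The libraries of each organ were close, and liver alone was low. The difference was 1.91 ± 0.21 (adjusted p = 0.000298, limma), 3.76-fold, and it was called under each removal of 1 library. The neighbouring fibrinogen genes Fgb and Fgg were called as well, at 1.86 ± 0.41 and 1.29 ± 0.27, and the 3 genes lie side by side on chromosome 3 between 83007724 and 83049863 with no other tested gene among them. Fgb was not called without frozen kidney (1.56), frozen liver (2.02), FFPE liver (1.71) or FFPE heart (1.86). Fgg was not called without frozen kidney (0.71), frozen liver (1.25) or FFPE liver (1.33).

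Vtn, which encodes the plasma adhesion protein vitronectin, had 54.5 and 48.9 CPM in frozen and FFPE kidney, 13.3 and 14.2 in frozen and FFPE liver, and 30.7 to 44.4 elsewhere. Its difference was 1.91 ± 0.27 (adjusted p = 0.00239, limma). Apof, the gene of apolipoprotein F, had 45.1 and 52.7 CPM in frozen and FFPE kidney, 10.7 and 8.14 in frozen and FFPE liver, and 29.4 to 32.8 elsewhere, a difference of 2.39 ± 0.31. Both genes kept their calls when any 1 library was left out, and in both the 2 liver libraries lay below the other 6. Apof overlaps Stat2 in the annotation, and reads shared by overlapping genes could be counted for either. Cyp8b1, an enzyme of bile acid synthesis, differed by 1.68 ± 0.24 (adjusted p = 0.00269, limma) and was not called without FFPE liver (1.48).

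F12, the gene of coagulation factor XII, was the 1 hepatocyte gene called lower in kidney, among 9 of the 63 with a negative difference. It had 12.3 and 18.2 CPM in frozen and FFPE kidney, 91.6 and 117.6 in frozen and FFPE liver, and 12.8 to 22.9 in brain and heart. Liver alone was high. The difference was -2.79 ± 0.29 (adjusted p = 0.000211, limma), 6.94-fold higher in liver, and it was called under each removal of 1 library.

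The windows around the starts of F12, Fga and Vtn are shown because they are the hepatocyte genes of smallest p that the promoter table holds. Wnk4, a kidney gene described below, has the smallest p in that table among kidney-list genes with more 5mC in liver that the naming rule picked. The rule, given under processing, did not pick Bmp4, which was chosen after its value was seen. The Wnk4 window is therefore shown as well. Each window runs from 250 bases before the start to 50 after it, from RefSeq on GRCm38.p6, 5′ to 3′ on the gene's strand. Capitals mark CpG, the usual site of 5mC. The deposited values are per gene and do not say where in a gene the reads lay, so the windows show where CpG sites are and not which are methylated.
F12: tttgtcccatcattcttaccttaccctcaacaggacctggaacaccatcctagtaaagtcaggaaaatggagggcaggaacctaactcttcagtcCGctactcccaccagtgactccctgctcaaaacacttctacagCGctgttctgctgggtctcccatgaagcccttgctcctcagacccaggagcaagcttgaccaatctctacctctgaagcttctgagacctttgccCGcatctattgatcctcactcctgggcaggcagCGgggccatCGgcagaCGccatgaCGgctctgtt
Fga: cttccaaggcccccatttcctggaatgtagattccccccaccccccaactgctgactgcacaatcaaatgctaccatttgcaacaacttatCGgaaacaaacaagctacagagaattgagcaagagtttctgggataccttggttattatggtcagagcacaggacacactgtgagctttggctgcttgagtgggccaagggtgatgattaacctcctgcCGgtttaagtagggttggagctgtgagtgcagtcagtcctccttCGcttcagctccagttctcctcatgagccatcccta
Vtn: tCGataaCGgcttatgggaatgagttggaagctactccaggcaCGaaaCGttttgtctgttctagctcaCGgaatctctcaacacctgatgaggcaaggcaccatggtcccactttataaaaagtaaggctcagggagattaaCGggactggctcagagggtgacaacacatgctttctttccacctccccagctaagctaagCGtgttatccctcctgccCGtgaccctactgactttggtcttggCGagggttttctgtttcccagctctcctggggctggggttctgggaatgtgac
Wnk4: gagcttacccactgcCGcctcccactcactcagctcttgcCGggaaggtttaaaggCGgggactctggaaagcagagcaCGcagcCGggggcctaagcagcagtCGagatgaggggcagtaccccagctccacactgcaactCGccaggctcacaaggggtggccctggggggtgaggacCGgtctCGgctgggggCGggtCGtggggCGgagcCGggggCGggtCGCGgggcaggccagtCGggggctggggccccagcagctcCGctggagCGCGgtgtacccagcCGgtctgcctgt
The F12 window (chr13:55426755-55427054, minus strand) holds 7 CpG and the Fga window (chr3:83025903-83026202, plus strand) holds 3. The Vtn window (chr11:78498870-78499169, plus strand) holds 9, and the Wnk4 window (chr11:101260317-101260616, plus strand) holds 21.

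Other genes of liver secretion followed the same direction in part. Of 28 apolipoprotein genes, 4 were called higher in kidney and 0 lower (0 also at an unadjusted p below 0.05, limma). The higher calls were 14.3% of the family, against 0.754% of all tested genes. The median difference was 0.66, and 0.33 among those with a mean of at least 10 CPM. Apoe, whose protein carries lipids in blood and brain, had 103.4 and 80.6 CPM in frozen and FFPE kidney, 19.13 and 22.2 in frozen and FFPE liver, and 30.0 to 54.8 elsewhere. Kidney was above and liver below all other libraries, and the difference was 2.15 ± 0.25 (adjusted p = 0.000605, limma). Apob, the main protein of very low density lipoprotein, differed by 1.20 ± 0.24 and was not called without frozen liver (0.79). Apoc1, next to Apoe on chromosome 7, differed by 1.88 ± 0.45 and was called only with all libraries or without FFPE kidney; its difference lay between 1.33 (without frozen kidney or frozen liver) and 2.42 (without FFPE liver) in the other cases. The count for the family was 4 without frozen kidney and 2 without frozen liver. Apon, near Apof on chromosome 10, was also called higher but is not in this family, which was formed by symbol.

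Of 49 complement and coagulation genes, 6 were called higher in kidney (12.2%) and 1, F12, lower (2.04%), with a median of 0.41. Over all tested genes the shares were 0.754% and 1.14%. Of these 49 genes 14 are also on the hepatocyte list, as are 3 of the 4 called genes of the apolipoprotein family (Apob, Apoc1 and Apof). The lists are therefore not separate evidence. Overlap of the uncalled apolipoprotein genes was not counted. Serpinc1, the clotting inhibitor antithrombin, had 50.9 and 62.1 CPM in frozen and FFPE kidney against 18.8 and 26.3 in frozen and FFPE liver, a difference of 1.34 ± 0.24 (adjusted p = 0.0107, limma). It was not called without frozen liver (1.27) or FFPE liver (1.40). The higher count was 3 without frozen kidney, 12 without FFPE kidney, 1 without frozen liver, 2 without FFPE liver, 4 without frozen heart and 3 without FFPE heart.

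Bile acid and cholesterol genes showed 3 of 38 called higher and 0 lower (14 and 2 at an unadjusted p below 0.05, limma), with a median of 0.42 that was 0.22 without FFPE liver. The higher calls were 7.9% of the list, against 0.754% of all tested genes. Cyp8b1, given above, had the smallest p of the 3. The count was 3 without frozen kidney, 7 without FFPE kidney (with 4 lower), 2 without frozen liver or either brain library, 1 without either heart library and 0 without FFPE liver.

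Liver-enriched transcription factors, which switch on hepatocyte genes, did not move together. Of 26, 2 were called higher in kidney and 2 lower, with a median of 0.20. Each direction held 7.69% of the list, against 0.754% higher and 1.14% lower over all tested genes. Without frozen kidney or FFPE kidney 3 were called in each direction, and without either liver library 1 in each. Gata4, a factor of liver endothelium and of heart and gut development, had 8.96 and 19.14 CPM in frozen and FFPE kidney, 155.8 and 155.5 in frozen and FFPE liver, and 16.3 to 33.9 elsewhere. Liver stood far above every other library, at 11.9-fold the kidney signal, and the difference of -3.57 ± 0.30 (adjusted p = 2.49e-05, limma) was called under each removal of 1 library. Its relative Gata6 went the same way at -1.28 ± 0.25 but was not called without frozen liver (-1.21) or FFPE liver (-1.35).

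Foxa2, a pioneer factor that opens liver chromatin, had 16.2 and 17.2 CPM in frozen and FFPE kidney, 0.438 in frozen liver, 2.84 in FFPE liver and 5.44 to 13.7 elsewhere. The difference was 3.91 ± 0.75 (adjusted p = 0.0157, limma), lost without frozen liver (2.81) and without FFPE heart (3.91). Rxra, the partner of many nuclear receptors, differed by 1.16 ± 0.23, lost without frozen liver (1.15) or FFPE liver (1.17). The defining factor Hnf4a was not called, at 0.16 ± 0.27. It had 53.3 and 33.8 CPM in frozen and FFPE kidney against 32.3 and 44.5 in frozen and FFPE liver, so the order of the organs changed with preservation.

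Hox genes, which set position along the body axis and sit in 4 clusters, often had more 5mC signal in kidney. Of 38 tested, 12 were called higher in kidney and 0 lower (26 and 0 at an unadjusted p below 0.05, limma). The higher calls were 31.6% of the list, against 0.754% of all tested genes. The median difference was 2.54, also with genes at 0 reads in an organ set to their bound. Both kidney libraries lay above all 6 other libraries at 27 of the 38 (71.1%), against 3.53% of all tested genes. Their summed signal was 1303 and 957.9 CPM in frozen and FFPE kidney, 194.0 and 247.3 in frozen and FFPE liver, and 154.4 to 216.8 in brain and heart. Here kidney, not liver, stood apart from the other organs. The median was 3.06 in frozen tissue and 2.16 in FFPE tissue. Without the frozen kidney library 11 were called higher, and the count was 4 without frozen liver and 6 without FFPE liver.

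The clusters differed in how many of their genes passed. In the Hoxd cluster 5 of 9 were called, with a median of 3.46, in Hoxc 3 of 9 (3.71), in Hoxa 3 of 11 (1.36) and in Hoxb 1 of 9 (1.12). No test of the difference between clusters was made. Hoxd3 had 168.6 and 122.6 CPM in frozen and FFPE kidney, 5.40 and 2.08 in frozen and FFPE liver, and 3.73 to 5.76 in brain and heart. Both kidney libraries thus stood far above the 6 others, which were alike, and the difference was 5.42 ± 0.54 (adjusted p = 0.000148, limma). Hoxd3 overlaps Hoxd4 and Mir10b in the annotation, so reads there could be counted for either gene.

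Hoxa11, which acts with its paralogs in outgrowth of the ureteric bud, had 102 and 84 reads in frozen and FFPE kidney and 0 in both liver libraries. Against the floor of 3 reads in each liver library, its mean of 35.5 CPM in kidney was at least 35.3-fold higher. Hoxa11 overlaps its antisense gene Hoxa11os, and the counting is not stated to use strand. Hoxa2 had 98.8 and 57.4 CPM in frozen and FFPE kidney, 2.48 and 10.4 in frozen and FFPE liver and 8.21 to 10.5 elsewhere, a difference of 3.89 ± 0.57 (adjusted p = 0.00269, limma). Hoxd3, Hoxa11 and Hoxa2 kept their calls when any 1 library was left out. Hoxc4 differed by 4.89 ± 0.75 and was not called without frozen liver (4.43). The plot of the clusters shows both kidney libraries above all others at 7 of 11 Hoxa, 5 of 9 Hoxb, 7 of 9 Hoxc and 8 of 9 Hoxd genes. Positions where kidney was close to or below the others included Hoxa9 to Hoxa13, apart from Hoxa11, and Hoxb8.

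**Figure D2:**
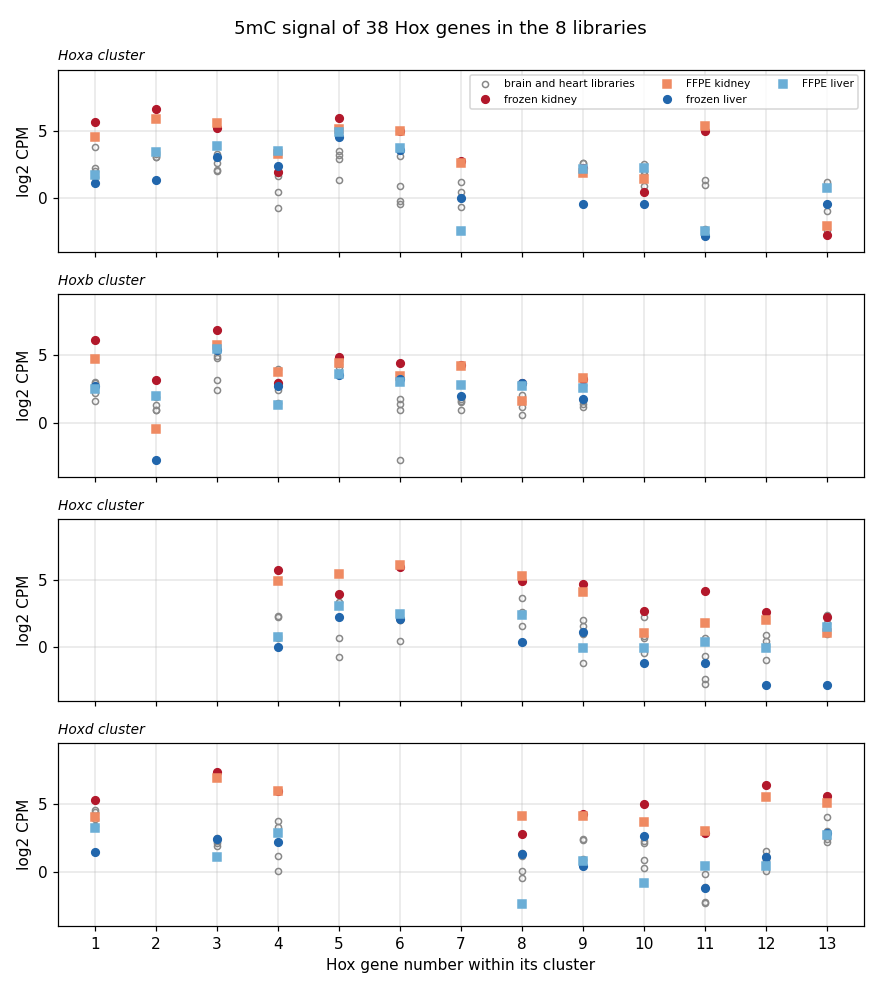
5mC signal (log2 CPM, vertical axes) of 38 Hox genes in 8 libraries, by cluster (panels) and gene number within the cluster (horizontal axis). Kidney points (red and orange) lie above the liver points (blue) and the open brain and heart points at 27 genes, and Hoxa11 has liver at the offset that stands for 0 reads.

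Among 52 genes of kidney development, 6 were called higher in kidney and 1 lower, with a median of 0.32 (-0.066 over those with a mean of at least 10 CPM). The calls were 11.5% and 1.92% of the list, against 0.754% and 1.14% of all tested genes. Among the higher calls, Hoxa11 is also on the Hox list and Wt1 on the podocyte list below. These lists are therefore not separate evidence. Both kidney libraries lay above the other 6 at 11 of the 52 (21.2%, against 3.53% of all tested genes). Without frozen kidney 7 were called higher and 2 lower. Leaving out either liver library gave 4 higher and 0 lower, and leaving out FFPE kidney gave 9 higher and 2 lower. Pax2, the transcription factor that specifies the nephric lineage (chromosome 19, 44746601 to 44838269, GRCm38), had 69.98 and 74.4 CPM in frozen and FFPE kidney, 13.3 and 13.1 in frozen and FFPE liver, and 13.5 to 26.5 elsewhere. Kidney stood above all other libraries, and liver was near heart. The difference was 2.45 ± 0.33 (adjusted p = 0.00165, limma), 5.48-fold, and kept its call when any 1 library was left out. Pax2 spans Mir6405 in the annotation.

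Irx5 and Irx2 are Iroquois homeobox factors of nephron segmentation. Irx5 had 27.5 and 18.2 CPM in frozen and FFPE kidney, 2 reads in frozen liver, 0 reads in FFPE liver and 5.09 to 12.9 CPM elsewhere, a difference of 5.91 ± 0.83 (adjusted p = 0.00239, limma). Irx2 differed by 4.61 ± 0.78, but its 8.96 and 9.21 CPM in frozen and FFPE kidney lay within the 7.74 to 21.0 CPM of brain and heart, so liver was the organ that differed. The Irx2 call was lost without FFPE liver (3.92). With so few liver reads these fitted differences depend on the 0.5 reads added to each count. The 1 gene lower in kidney was Bmp4, a growth factor around the ureteric bud, chosen after its value was seen: it had 35.7 and 29.1 CPM in frozen and FFPE kidney against 87.8 and 74.0 in frozen and FFPE liver, a difference of -1.32 ± 0.21 (adjusted p = 0.00464, limma) that was not called without frozen liver (-1.39) or FFPE liver (-1.26). Pax8, which acts with Pax2, was not called, at -0.72 ± 0.32. Its difference was -0.04 in frozen and -1.41 in FFPE tissue, and without frozen kidney it was called lower at -1.28 (adjusted p = 0.0368, limma).

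The differentiated nephron left few calls in number. Of 48 proximal tubule genes 1 was called higher in kidney and 0 lower (4 and 5 at an unadjusted p below 0.05, limma), with a median of -0.032. The higher call was 2.08% of the list, against 0.754% of all tested genes. Without frozen kidney 1 was called in each direction, without FFPE kidney 3 higher and 1 lower, and without frozen liver 0. The 1 gene was Amn, the partner of cubilin in protein uptake, with 31.7 and 39.9 CPM in frozen and FFPE kidney, 3.07 and 8.90 in frozen and FFPE liver and 7.34 to 25.6 elsewhere. Its difference was 2.77 ± 0.49 (adjusted p = 0.0102, limma), lost without frozen liver (1.95). Lrp2, the megalin gene and the other arm of that uptake, had 338.7 and 307.4 CPM in frozen and FFPE kidney against 362.3 and 389.2 in frozen and FFPE liver, a difference of -0.22 ± 0.15 that was not called. Slc34a1, the phosphate transporter of the proximal tubule, was not called either (-0.32 ± 0.24).

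Among 48 genes of the loop of Henle, distal tubule and collecting duct 0 were called higher in kidney and 2 lower (4 and 8 at an unadjusted p below 0.05, limma), with a median of -0.078. The lower calls were 4.17% of the list, against 1.14% of all tested genes. The lower count was 1 without frozen kidney, 6 without FFPE kidney (with 2 higher), 1 without either heart library and 0 without either liver library. Wnk4, a kinase that controls salt transport in the distal tubule, had 24.7 and 31.9 CPM in frozen and FFPE kidney, 67.0 and 91.5 in frozen and FFPE liver and 18.6 to 41.9 elsewhere. Liver was above all other libraries, and the difference of -1.48 ± 0.26 (adjusted p = 0.00926, limma) was not called without frozen liver (-1.63) or FFPE liver (-1.33). Scnn1a, a subunit of the epithelial sodium channel, differed by -1.58 ± 0.35 overall but by -2.61 in frozen and -0.55 in FFPE tissue, and it was not called without frozen kidney (-0.71), frozen liver (-1.08), FFPE liver (-2.08) or either heart library (-1.58). Umod, the uromodulin gene of the loop of Henle, was not called at -0.63 ± 0.26.

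Of 27 podocyte and glomerular genes 2 were called higher and 0 lower (5 and 4 at an unadjusted p below 0.05, limma). The higher calls were 7.41% of the list, against 0.754% of all tested genes. The list's median difference was 0.22, but 0.013 in frozen tissue and 0.028 without FFPE liver. The higher count was 3 without either kidney library and 1 without any other single library, and without FFPE kidney 1 was called lower. Wt1, the Wilms tumour gene of nephron progenitors and podocytes, differed by 1.26 ± 0.31 and kept its call only without frozen kidney; it ranged from 0.74 without FFPE liver to 1.77 without frozen liver.

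**Figure D3:**
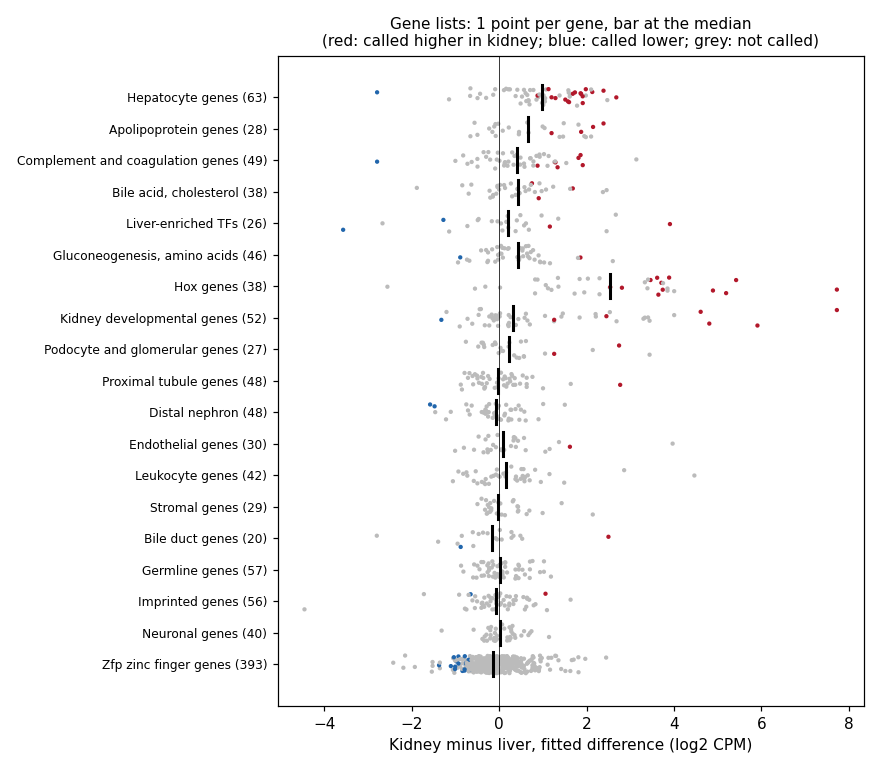
Fitted kidney minus liver difference (log2 CPM, horizontal axis) of each tested member of 19 gene lists, 1 point per gene, with a black bar at each list's median and the number of tested members in brackets. Red points were called higher in kidney, blue points lower and grey points not called; the Hox median stands at 2.54 and the hepatocyte median at 0.98.

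Metabolic genes that both organs use gave few calls in number. Of 46 genes of gluconeogenesis and amino acid use 1 was called higher and 1 lower (11 and 2 at an unadjusted p below 0.05, limma), with a median of 0.43. Each call was 2.17% of the list, against 0.754% higher and 1.14% lower over all tested genes. The difference was positive at 32 and negative at 14, and both liver libraries lay below the other 6 at 14 of the 46 (30.4%, against 10.3% of all tested genes). Neither direction had a call without frozen kidney or without either liver library, and 4 were called higher without FFPE kidney. Gnmt, a liver enzyme of glycine and methyl group use, differed by 1.86 ± 0.39 and Pcx, pyruvate carboxylase, by -0.89 ± 0.20. Both were lost without frozen kidney (1.38 and -0.63) and without either liver library (1.58 to 2.13 and -0.92 to -0.86), and Pcx also without either heart library (-0.89). Pcx overlaps Lrfn4 in the annotation, which was called lower too, so their counts may share reads. Of 10 urea cycle genes 0 were called (3 higher and 1 lower at an unadjusted p below 0.05, limma).

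Genes of drug handling also gave few calls in number. The higher share was 1.79% for phase II conjugation and 3.19% for cytochrome P450 genes, against 0.754% of all tested genes. The lower share of cytochrome P450 genes was 1.06%, against 1.14%. Of 56 phase II conjugation genes 1 was called higher and 0 lower (12 and 3 at an unadjusted p below 0.05, limma). Without frozen kidney 4 were called higher, without FFPE kidney 4 higher and 6 lower, and without FFPE liver or either heart library 0. The 1 gene was Ugt1a5, whose annotated span holds other Ugt1a genes that share exons, so its value of 2.38 ± 0.52 is uncertain; it was lost without FFPE liver (1.53) or either heart library (2.38). Of 47 organic ion transporters 0 were called (2 in each direction at an unadjusted p below 0.05, limma). Of 94 cytochrome P450 genes 3 were called higher and 1 lower (15 and 3 at an unadjusted p below 0.05, limma), with a median of 0.19. The counts were 4 and 3 without frozen kidney, 7 and 6 without FFPE kidney, and 1 and 0 without either liver library. Cyp2d26 differed by 1.69 ± 0.33, lost without frozen liver (1.15), and Cyp8b1 is given above. Cyp4f39 differed by 1.67 ± 0.37, lost without either liver, brain or heart library (1.66 to 1.69). The lower gene, chosen after its value was seen, was Cyp26c1, a retinoic acid degrading enzyme (-1.12 ± 0.26), lost without FFPE kidney (-0.64) or either liver or heart library (-1.24 to -1.002). Of 22 major urinary protein genes, near-identical copies among which reads cannot be assigned surely, 0 were called (1 higher and 2 lower at an unadjusted p below 0.05, limma).

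The genes with the largest differences among those of at least median signal, 10 in each direction, came mostly from other classes. Mab21l2, a gene of eye and body wall development, had 111.3 and 79.6 CPM in frozen and FFPE kidney, 9.49 and 2.46 in frozen and FFPE liver, and 10.5 to 83.2 elsewhere. The difference was 4.28 ± 0.36 (adjusted p = 2.49e-05, limma). It lies inside the annotated span of Lrba, so counts of the 2 genes can share reads. Fam172a had 99.7 and 76.8 CPM in frozen and FFPE kidney, 6.57 and 14.6 in frozen and FFPE liver and 43.7 to 60.2 elsewhere, a difference of 3.16 ± 0.31. The liver libraries were the lowest of the 8 in both genes, close to FFPE heart for Mab21l2. Tmem30b, which helps move lipid flippases, differed by 2.38 ± 0.32, and it, Mab21l2 and Fam172a kept their calls when any 1 library was left out. Hspa2, a heat shock protein (2.50 ± 0.43), and Shh, the sonic hedgehog ligand (2.13 ± 0.37), were not called without frozen liver, where they differed by 1.77 and 1.85. Pax2, Apof, Apoe and Alb, given above, are also among the 10 highest.

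At the low end stood Gata4 and F12, given above, with Fut11, a fucosyltransferase. Fut11 had 11.4 and 19.14 CPM in frozen and FFPE kidney, 125.7 and 182.4 in frozen and FFPE liver, and 6.88 to 15.3 elsewhere. Liver was 10.3-fold above kidney, which lay near brain and heart, and the difference of -3.36 ± 0.37 (adjusted p = 0.000298, limma) was called under each removal of 1 library. Tnfaip2 had 43.0 and 33.3 CPM in frozen and FFPE kidney, 153.2 and 186.9 in frozen and FFPE liver and 34.5 to 61.2 elsewhere, a difference of -2.16 ± 0.24 with a call under each removal. Urad, an enzyme of urate breakdown that is active in mouse liver, differed by -2.65 ± 0.35, with 14.1 and 12.5 CPM in frozen and FFPE kidney against 69.4 and 100.2 in frozen and FFPE liver. Both genes were high in liver alone.

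The other 5 of the 10 lowest were Snx20 (-2.68 ± 0.40), the sphingosine phosphate receptor gene S1pr5 (-2.56 ± 0.52), the sulfotransferase gene Gal3st1 (-2.35 ± 0.31), D7Ertd143e (-2.18 ± 0.34) and the adrenergic receptor gene Adra1a (-2.13 ± 0.31). Without FFPE liver, Snx20 (-2.26), Urad (-2.38), S1pr5 (-1.30), Gal3st1 (-2.08) and Adra1a (-1.99) were not called, and without frozen liver D7Ertd143e (-1.89) was not. S1pr5 had 56.8 CPM in frozen and 238.8 in FFPE liver, the widest gap between the liver libraries among these 10. D7Ertd143e spans a cluster of microRNA genes, among them Mir291a and Mir295. The plot of 19 of these genes shows the brain and heart libraries on the kidney side for most genes.

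**Figure D4:**
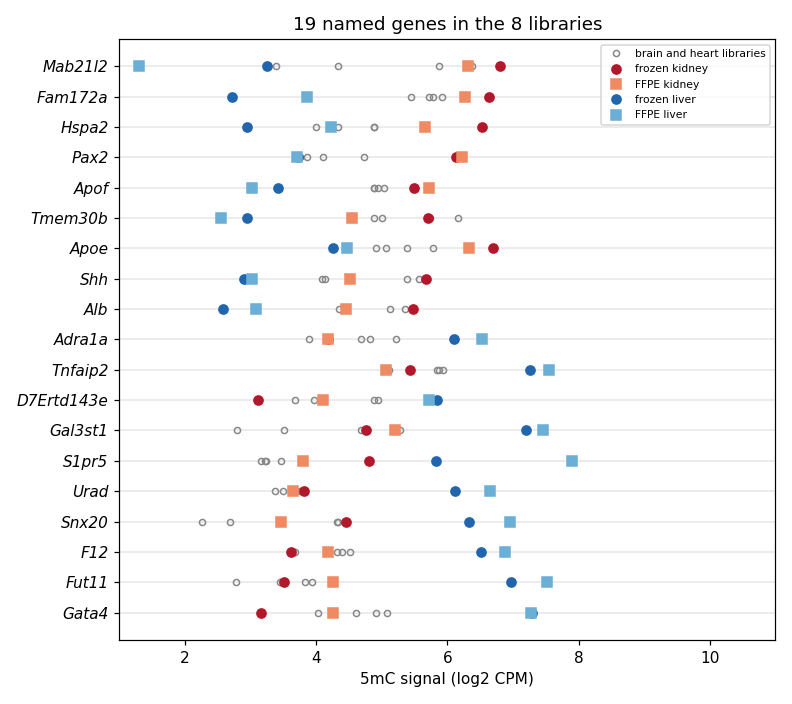
5mC signal (log2 CPM, horizontal axis) of 19 of the genes with the largest called difference in either direction, by library: red circles frozen kidney, orange squares FFPE kidney, dark blue circles frozen liver, light blue squares FFPE liver, open grey circles the 4 brain and heart libraries. For the lower 10 genes both liver libraries lie to the right of all 6 others.

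Zinc finger genes named Zfp, a large family whose products mostly repress transcription, gave calls in 1 direction under the deposited scaling. Of 393 tested, 19 were called lower in kidney and 0 higher (74 and 20 at an unadjusted p below 0.05, limma), with a median of -0.14. The lower calls were 4.8% of the family, against 1.14% of all tested genes. Both liver libraries were above the 6 others at 89 of them (22.6%), against 11.7% of all tested genes. The 19 differences lay between -1.38 and -0.64. After quantile normalization 0 were called, with a median of -0.085, and with plain totals 6 were called lower and 2 higher, with a median of -0.020. Without frozen kidney 25 were called lower and 1 higher. The lower count was 45 without FFPE kidney, 1 without frozen liver, 0 without FFPE liver and 6 without either heart library.

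Zfp791 had 100.9 and 143.9 CPM in frozen and FFPE kidney, 190.0 and 278.6 in frozen and FFPE liver, and 61.6 to 93.5 elsewhere. Kidney lay between liver and the other organs. Its difference was -0.93 ± 0.17 (adjusted p = 0.0119, limma), lost without frozen liver (-0.96) or FFPE liver (-0.91). Zfp1 differed by -1.01 ± 0.20, Zfp12 by -0.93 ± 0.18 and Zfp703 by -1.38 ± 0.27. Zfp1 was lost without frozen liver (-1.11) or FFPE liver (-0.91), Zfp12 without these (-0.77 and -1.09) and without frozen kidney (-0.67), and Zfp703 without FFPE liver (-0.85).

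Genes of other cells that a whole organ holds gave at most 1 call per list in each direction. In such short lists 1 call was 3.33% (endothelial) or 5.0% (bile duct) of the genes. Over all tested genes 0.754% were called higher and 1.14% lower. Of 30 endothelial genes 1 was called higher, Lyve1, a receptor of liver sinusoids and lymphatics (1.62 ± 0.38). Without frozen kidney 2 were called higher, and without FFPE kidney 2 lower. Of 20 bile duct genes 1 was called higher, Aqp8 (2.50 ± 0.57), and 1 lower, Epcam (-0.88 ± 0.20), with 0 and 2 called without frozen kidney. Each of these 3 was lost without either liver library and without either heart library: Lyve1 then differed by 1.40 to 1.83, Aqp8 by 1.93 to 3.08 and Epcam by -1.04 to -0.73. Lyve1 was also lost without FFPE kidney (1.13) or either brain library, Aqp8 without frozen kidney (1.86) or either brain library, and Epcam without FFPE kidney (-0.57).

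Of 42 genes of Kupffer cells, macrophages and other leukocytes 0 were called, with 4 higher and 1 lower at an unadjusted p below 0.05 (limma). Of 29 stromal genes 0 were called, with 3 and 0. Of 40 neuronal genes, for which neither organ is the source, 0 were called, with 2 and 1. The summed signal of the leukocyte list was 795.7 and 896.0 CPM in frozen and FFPE kidney against 895.3 and 847.0 in frozen and FFPE liver, so the organs overlapped. The stromal list summed to 2332 and 2099 CPM in frozen and FFPE kidney against 2245 and 2208 in frozen and FFPE liver, which overlapped too. The neuronal list summed to 4006 to 4312 CPM in the 4 libraries and to 2699 and 2888 CPM in frozen and FFPE brain, lowest in the organ that uses those genes. The lists without calls gave 0 calls also without any 1 library other than FFPE kidney, without which each gave up to 3 higher and up to 4 lower calls. The part of cell type shares in the differences was not tested.

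The enzymes that write, read and remove 5mC gave 0 calls among 32 genes (1 higher and 6 lower at an unadjusted p below 0.05, limma), although 4 were called lower without FFPE kidney, and 57 germline genes, many of them silenced by promoter methylation in body tissues, also gave 0 (6 and 3). Cytosolic ribosomal protein genes gave 0 of 75 (0 and 1), with a median of -0.30 that was 0.013 without frozen kidney. Among 56 imprinted genes, which are methylated by parent of origin, Grb10 was called higher (1.06 ± 0.24) and Peg3 lower (-0.65 ± 0.15). Each call was 1.79% of the list, against 0.754% higher and 1.14% lower over all tested genes. The counts were 0 and 2 without frozen kidney and 4 and 5 without FFPE kidney. Both were lost without frozen kidney (0.82 and -0.60) and without either liver library (0.89 to 1.23 and -0.71 to -0.60). Neither was called without either heart library, and Peg3 was not without either brain library, with differences of 1.06 and -0.65.

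Of 58 clustered protocadherin genes, cell adhesion genes expressed in neurons, 4 were called higher and 0 lower (22 and 0 at an unadjusted p below 0.05, limma), with a median of 0.44 (0.45 with genes at 0 reads in an organ set to their bound). The higher calls were 6.9% of these genes, against 0.754% of all tested genes. Both kidney libraries were above the other 6 at 21 of the 58 (36.2%, against 3.53% of all tested genes). The 4 were Pcdhga3 (1.08 ± 0.21), Pcdhga8, Pcdhgb6 and Pcdhga10, gamma genes whose annotated spans overlap and share exons, so they may hold the same reads and are uncertain. The count was 13 without FFPE kidney, 2 without frozen kidney, 1 without either heart library and 0 without either liver library. Chemoreceptor genes gave 4 of 1104 olfactory receptors higher and 1 lower (106 and 58 at an unadjusted p below 0.05, limma), and 1 of 338 vomeronasal receptors higher and 0 lower (9 and 5 at an unadjusted p below 0.05, limma). The higher calls were 0.362% of the olfactory and 0.296% of the vomeronasal receptors, both below the 0.754% of all tested genes. Without frozen kidney 11 and 5 olfactory and 2 and 1 vomeronasal receptors were called higher and lower, and without FFPE kidney 34 and 113, and 3 and 18. Without FFPE liver or FFPE heart 0 olfactory receptors were called. The higher ones with all libraries were Olfr2, Olfr594, Olfr827, Olfr1246 and Vmn1r38, and the lower one, chosen after its value was seen, was Olfr725, with at most 15 reads in any of the 4 libraries. Each of the 6 lost its call without at least 1 of the liver libraries, where the differences lay between -4.02 and -3.83 for Olfr725 and between 1.33 and 2.37 for Olfr2, Olfr594 and Olfr827. Olfr1246 and Vmn1r38 had 0 reads in both liver libraries, so against the floor of 3 reads a library they were at least 5.09-fold and at least 7.95-fold higher in kidney. Near-identical copies can share reads here.

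The brain and heart libraries show which organ departed from the rest. Of the 196 genes called higher in kidney, 150 had both liver libraries below the other 6 (10.3% of all tested genes) and 70 had both kidney libraries above the other 6 (3.53%), and the mean of brain and heart was nearer to kidney at 144. Of the 297 called lower, 273 had both liver libraries above the other 6 (11.7%) and 37 had both kidney libraries below the other 6 (4.38% of all tested genes), and the mean was nearer to kidney at 263. Over all tested genes both liver libraries thus already lay beyond the other 6 more often than both kidney libraries did. The 2 kidney libraries correlated at r = 0.862 and the 2 liver libraries at 0.913, and the deposited scaling differed between organs. The part of library agreement and scaling in the counts was not tested. These counts share the kidney and liver libraries with the calls and are descriptions. The kidney and liver libraries overlapped at 1 of the higher and 2 of the lower calls.

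The 2 groups of called genes also differed in size and signal. Genes called higher in kidney spanned a median of 10102 bases and had a median signal of 4.58 log2 CPM, against 21955 bases and 6.02 for those called lower and 15435 bases and 4.21 for all tested genes. The part of span and signal in the calls was not tested. Positions were known for 94.9% of the higher and 97.3% of the lower calls. Runs of called genes no more than 100 kb apart included, chosen after their values were seen, 5 genes of the Hoxc region with Hotair, 5 of Hoxd, 4 of Hoxa with Hoxa11os, and the pairs Apoc1 with Apoe, Apon with Apof, Ahsg with Hrg, and C4a with Cfb. Neighbouring or overlapping genes can share reads and are not independent calls.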

How the data were processed

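5mC was measured by MeDIP sequencing of mouse organs. Per the submitters' processing notes, reads were handled with Bowtie2, featureCounts and limma on mm10; the sources used here do not state the counted feature, strand setting or versions. The authors deposited log2 CPM per gene, 1 column per organ and preservation; the values step back to whole reads with 0.5 added (100% of values, tolerance 1e-04), 2164158 to 3699218 reads in the 4 libraries compared. Here limma 3.58.1 (R 4.3.3) fitted organ and preservation as additive terms to all 8 columns (5 coefficients, 3 residual and 13.1 prior degrees of freedom) with a variance trend on the mean, for genes reaching 1 CPM in 2 or more columns, calling adjusted p below 0.05. CPM values include the 0.5. The script was tested on simulated data, with changes set in genes of at least median signal. It recovered 18% of the genes changed 2-fold and 97% of those changed 4-fold, with 9 false calls. Lists with 0 calls can thus hold 2-fold differences. The library sizes behind the CPM were 0.851 to 1.10 times the reads on genes, a scaling that the sources used here do not describe.

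Members, lists and families (22 lists, 7 symbol families) were chosen with earlier results of these data known. Genes named are the 10 largest called differences in each direction among named genes of at least median signal with kidney beyond liver in both libraries, up to 4 called members per list by p, and the defining genes Alb, Hnf4a, Umod, Lrp2, Slc34a1, Pax2 and Pax8; some genes that this rule names are not reported here. Positions came from RefSeq GRCm38.p6 by Entrez ID (93.0% of 27179 genes matched). CpG content by call was not compared because only 70.3% of tested genes had a promoter window. Filters, normalization, variance model, offset and single libraries were varied, with voom weights on the stepped-back reads, and plain library totals were added after seeing the data.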

Additional observations from a re-analysis of the deposited data

Results flagged for a closer look

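At 9 lists and 1 gene the kidney minus liver difference had opposite signs in frozen and FFPE tissue; each organ has 1 library per preservation, and the difference between preservations was not tested. FFPE minus frozen, the change in the median (log2 CPM) was 0.70 for Kupffer cell, macrophage and other leukocyte genes (-0.19 frozen, 0.51 FFPE), 0.43 for olfactory receptor genes (-0.027 and 0.40), 0.20 for neuronal genes (-0.11 and 0.086) and 0.089 for organic ion transporters (-0.067 and 0.022). It was -0.57 for major urinary protein genes (0.52 and -0.056), -0.56 for urea cycle genes (0.52 and -0.039), -0.47 for liver-enriched transcription factors (0.37 and -0.098), -0.23 for imprinted genes (0.087 and -0.14) and -0.13 for proximal tubule genes (0.056 and -0.074). Hnf4a, the hepatocyte nuclear factor, changed by -1.12 (0.72 frozen, -0.40 FFPE).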

How the results depend on the processing

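None of the 63 called genes named changed sign under any alternative run, and 39 remained called after quantile normalization, 32 without the preservation term, 26 without frozen liver and 26 without FFPE liver. The 19 named genes of largest difference kept their calls under every alternative except without frozen liver (15), without FFPE liver (14), without the preservation term (18) and without the variance trend (0). Genes called higher and lower (196 and 297) numbered 315 and 486 with a mean of at least 10 CPM, 109 and 63 after quantile normalization, 69 and 57 without the preservation term, 0 and 0 without the trend, 85 and 99 with array weights, 401 and 793 with voom weights and 350 and 487 with 5 added to each read; centring gave 816 lower, and plain library totals, added after seeing the data, 285 and 133. Leaving out 1 library gave 54 to 940 higher and 11 to 1653 lower. Leaving out 1 library gave 5 to 22 hepatocyte genes higher (17 with all), 4 to 17 Hox genes higher (12), 4 to 9 kidney developmental genes higher (6) and 0 to 45 zinc finger genes lower (19). Hepatocyte calls were 11 after quantile normalization, 11 with kidney and liver columns only, 7 without the preservation term and 9 with array weights. Hox calls were 20 with voom weights and 19 with 5 added. Kidney developmental calls were 3 with a mean of at least 10 CPM, 12 with voom weights and 11 with 5 added. Zinc finger calls were 30 with a mean of at least 10 CPM, 0 after quantile normalization, 43 after centring, 0 without the preservation term, 4 with array weights, 40 with voom weights and 6 with plain totals. Each of these 4 lists had 0 without the trend, where limma gave 3463 genes at an unadjusted p below 0.05. The cause of these changes was not tested. The frozen and FFPE correlation of 0.0968 was 0.306 with a mean of at least 10 CPM and 0.225 with 5 added. Array weights were 0.496 for kidney, 0.955 for liver, 1.38 for brain and 1.53 for heart libraries, a measure of how far each organ's libraries disagree. No paired analysis was possible because the columns carry no replicate number, and edgeR and DESeq2, planned only for a file of counts, were not run on this file of log2 CPM, while voom weights on the stepped-back reads were. With a mean of at least 10 CPM no major urinary protein gene was left for a median. With 1 library per organ and preservation, the interaction of organ with preservation cannot be told apart from library error, and genes with few reads gave differences that depend on the offset.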
